A study of Mus musculus with 15 samples.

Results

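Cell division is driven by cyclin-dependent kinases (CDKs), which are active only when bound to a cyclin. D-type cyclins with CDK4 and CDK6, and then E-type cyclins with CDK2, release the E2F transcription factors from the retinoblastoma protein, and E2F turns on the genes that copy DNA. Cyclin A, cyclin B and CDK1 then drive the cell through mitosis, whose genes are switched on late in the cycle, while the CDK inhibitors hold cells back. In the adult aorta most smooth muscle and endothelial cells rest outside the cycle, so RNAs of dividing cells are usually scarce there.

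The set described here holds 43 mouse genes of the cell cycle and of DNA replication, chosen as a list by name, out of 34714 genes with a value in the aorta RNA-seq table. They comprise 4 mitotic cyclin and CDK1 genes, 11 genes of the spindle, its checkpoint and mitotic exit, 4 proliferation and chromatin markers, E2f1 and Foxm1, the 6 subunits of the MCM2-7 helicase, 4 genes of the replication clamp and nucleotide supply, 8 G1 cyclin and kinase genes and 4 CDK inhibitor genes. All 43 had a row in the table. Of these, 27 had a value of at least 1 FPKM (fragments per kilobase of transcript, scaled to library size) in at least 5 libraries and entered the tests, with 12603 genes in all. The other 16 lay under that filter and are given by their values alone: Cdk1, Ccnb1, Ccnb2, Aurkb, Plk1, Bub1, Bub1b, Cenpe, Cenpf, Kif11, Kif23, Mki67, Top2a, Foxm1, Rrm2 and Ccne2. A gene high in AngII libraries alone could pass the filter through those 5 libraries.

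The 15 libraries were made from aortas of mice labelled wild type (WT), 5 in each of 3 groups. AngII+RvE1 mice received angiotensin II at 750 ng/kg/min by infusion together with resolvin E1, a mediator derived from the omega-3 fatty acid eicosapentaenoic acid and a ligand of the receptor ChemR23, injected into the peritoneum at 2 µg/kg/day. AngII mice received the angiotensin II infusion without resolvin E1, and Sham mice are the controls. The labels used here give no age, strain or sex, and do not say whether each library came from a separate animal, so the spread behind each p-value is one between libraries and may be partly technical. The series title names ChemR23, hypertension and vascular remodeling as its subject. Smooth muscle markers were present in every library, with Acta2 at 485 FPKM or more, as the tissue label requires.

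AngII libraries 3, 4 and 5 stood apart from the other 12. The summed level of 13 B and T lymphocyte markers was 9.49 to 13.4 FPKM in AngII+RvE1 libraries, 15.2, 8.49, 896, 302 and 1368 FPKM in AngII libraries 1 to 5, and 4.96 to 71.7 FPKM in Sham libraries. In AngII libraries 3, 4 and 5 all 13 markers lay above every AngII+RvE1 and Sham library, and in AngII libraries 1 and 2 none did. Values are therefore given with and without these 3 libraries. In bulk tissue, fewer cells of a type and less RNA per cell cannot be told apart.

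Most of the 43 genes were higher in these 3 libraries than in any AngII+RvE1 or Sham library, with a smaller excess in library 4. The mean log2(FPKM + 1) of the 43 genes was 1.81, 1.93, 3.23, 2.37 and 3.15 in AngII libraries 1 to 5. It was 1.82 to 1.87 in AngII+RvE1 and 1.61 to 1.90 in Sham libraries. AngII library 3 exceeded all 10 AngII+RvE1 and Sham libraries for 37 of the 43 genes, library 4 for 32 and library 5 for 37, against 5 genes in AngII library 1 and 11 in AngII library 2. Among the 27 tested members the counts in AngII libraries 1 to 5 were 4, 4, 21, 18 and 21, where 12.1%, 8.35%, 36.2%, 24.5% and 35.4% of the 12603 tested genes met the same criterion. Of the 16 members under the filter, 1, 7, 16, 14 and 16 exceeded all 10 libraries, against 9.63%, 8.56%, 27.6%, 21.8% and 24.1% of the 13584 genes under it with a value above 0 in any library. AngII libraries 3 and 5 each failed to exceed the 10 libraries for the same 6 genes, Ccnd2, Ccnd3, Cdk6, Cdkn1a, Cdkn1c and Cdkn2c.

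**Figure D1:**
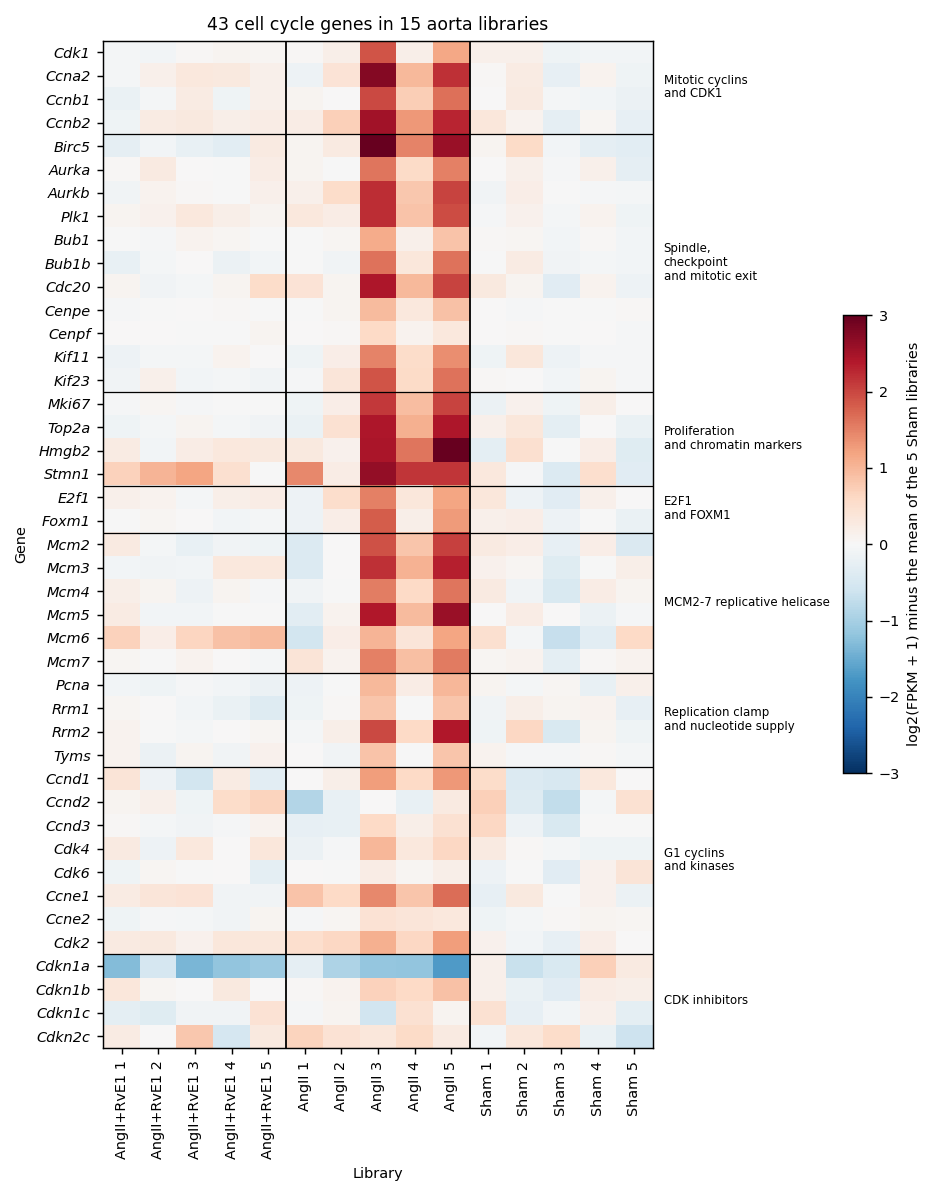
Level of each of the 43 genes (rows, grouped by role) in each library (columns: AngII+RvE1, AngII, Sham) as log2(FPKM + 1) minus the mean of the 5 Sham libraries, with the colour scale ending at 3 in either direction. AngII libraries 3 and 5 exceed all AngII+RvE1 and Sham libraries for 37 of 43 genes, AngII library 4 is paler, and Cdkn1a is blue across the AngII+RvE1 libraries and most AngII libraries.

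Genes of the cycle carry short sequence elements in front of their start, and a few promoters are shown because they carry these elements. RefSeq promoter windows (GRCm38.p6, 250 bases before to 50 bases after the transcription start) were found for 34 of the 43 genes and for 27025 genes in all. The cell cycle genes homology region (CHR; TTTGAA or TTCGAA, either strand), bound by the DREAM and MuvB complexes, was present in 13 of 16 mitotic, spindle and marker genes (81.2%), in 2 of 5 MCM genes and in 0 of 8 G1 kinase, cyclin and inhibitor genes, against 21.7% of all genes. E2F elements (TTTCCCGC, TTTGGCGC, TTTCGCGC or TTTGCCGC, either strand) were present in 4 of 5 MCM genes, 1 of 16 mitotic, spindle and marker genes and 1 of 8 G1 genes, against 2.6% of all genes. The CCAAT box (CCAAT, either strand), bound by NF-Y, was present in 27 of the 34 members (79.4%) and in 41.1% of all genes. Such matches describe letters in a window and do not show binding.

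The 120 bases before the start are printed 5′ to 3′ on the gene's strand, with matches in capitals. The genes are Top2a (chr11:99024190-99024309, minus strand), Hmgb2 (chr8:57511723-57511842, plus strand), Kif11 (chr19:37376262-37376381, plus strand), Mcm6 (chr1:128359706-128359825, minus strand) and Cdk2 (chr10:128705052-128705171, minus strand). Top2a, Hmgb2 and Kif11 show CHR elements and CCAAT boxes.
Top2a: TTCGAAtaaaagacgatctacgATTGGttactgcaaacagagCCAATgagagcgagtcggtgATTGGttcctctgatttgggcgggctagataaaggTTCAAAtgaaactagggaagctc
Hmgb2: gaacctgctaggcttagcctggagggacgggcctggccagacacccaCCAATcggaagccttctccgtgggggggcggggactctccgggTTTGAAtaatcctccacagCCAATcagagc
Kif11: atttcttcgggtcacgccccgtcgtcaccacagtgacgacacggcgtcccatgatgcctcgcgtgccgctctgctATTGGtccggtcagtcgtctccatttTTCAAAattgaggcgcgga
Mcm6 and Cdk2 act earlier in the cycle. In Mcm6 the capitals mark E2F elements, of which the first pair overlap, and CCAAT boxes, while Cdk2 shows a CCAAT box and has its E2F match just upstream of the printed bases, at position -140.
Mcm6: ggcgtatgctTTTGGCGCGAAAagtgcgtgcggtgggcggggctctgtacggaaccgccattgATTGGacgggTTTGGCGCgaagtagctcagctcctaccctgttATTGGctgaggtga
Cdk2: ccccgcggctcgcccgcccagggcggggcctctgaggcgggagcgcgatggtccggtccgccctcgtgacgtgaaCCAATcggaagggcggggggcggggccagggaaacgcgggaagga

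The effect of adding resolvin E1 to angiotensin II was asked of the AngII+RvE1 and AngII libraries. Of the 27 tested genes, 4 fell in AngII+RvE1 aortas and 0 rose: the G1/S pair Ccne1 and Cdk2, the helicase subunit Mcm7 and the mitotic gene Birc5 (limma on log2(FPKM + 1) over all 15 libraries, Benjamini-Hochberg adjusted over 12603 genes). Among all tested genes 4.31% fell and 4.21% rose by the same rule, 8.52% in all. At an unadjusted p under 0.05, 17 of 27 were lower and 0 higher, against 19.1% and 9.85% of all tested genes. Ccna2, Birc5, Aurka, Cdc20, E2f1, Mcm5 and Ccne1, all among the 17, did not pass the filter without AngII libraries 3, 4 and 5. Without those libraries 20 members passed, so the count and median of the 27 depend in part on the filter. The median log2 difference of the 27 genes was -0.56, against -0.11 over all tested genes, and 2 of 27 were positive. After rescaling each library by its median ratio, these medians were -0.49 and -0.02. The same 4 genes were then called, against 10.3% of all tested genes called in either direction.

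Whether angiotensin II alone changed these genes was asked of the AngII and Sham libraries. Here 3 of 27 rose, Ccne1, Cdk2 and the microtubule regulator Stmn1, and 0 fell, against 2.36% and 0.809% of all tested genes, 3.17% in all. At an unadjusted p under 0.05, 16 were higher and 1 lower, against 19.7% and 6.51% of all tested genes. The 16 include all the members named above that did not pass the filter without AngII libraries 3, 4 and 5. The median log2 difference was 0.68 for the 27 genes and 0.11 for all tested genes, with 25 of 27 positive. Rescaling gave medians of 0.60 and -0.00 and called 4 higher, with Mcm7 added, and 1 lower, Cdkn1a, against 4.37% of all tested genes called in either direction. The AngII libraries enter both comparisons, so the values of the 2 comparisons are not independent.

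Between AngII+RvE1 and Sham aortas, 0 of 27 genes were called in either direction by limma, with 0.0238% of all tested genes called (0.0159% higher, 0.00793% lower). At an unadjusted p under 0.05, 1 was higher, Mcm6, and 1 lower, Cdkn1a, against 4.71% and 1.98% of all tested genes, and the median of the 27 log2 differences was 0.07, with a range of -1.09 to 0.68. A missed threshold does not show that the groups were alike.

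With AngII libraries 3, 4 and 5 left out and the same genes tested, 0 members were called in any of the 3 comparisons by limma. Few genes of any kind were then called: 0.0476% of all tested genes for AngII+RvE1 against AngII, 0.175% for AngII against Sham and 0.0397% for AngII+RvE1 against Sham, so the count of 0 says little of these members. At an unadjusted p under 0.05, the members then higher in AngII than in Sham aortas were Ccne1, Cdk2 and Stmn1, 3 of 27 against 4.38% of all tested genes, and 0 were lower, against 2.4%. Ccne1 was lower in AngII+RvE1 than in AngII aortas while Ccnd2 and Mcm6 were higher, 1 and 2 of 27 against 5.11% and 6.37% of all tested genes. In AngII+RvE1 against Sham, Cdk2, Mcm6 and Stmn1 were then higher and Cdkn1a lower at that unadjusted threshold, against 5.47% and 2.4% of all tested genes. This left 2 AngII libraries, whose spread was taken from all 3 groups. In fits of only the groups compared, the calls of Ccne1, Cdk2 and Stmn1 for AngII against Sham were lost (adjusted p = 0.0716, 0.0781 and 0.102, limma), and so were those of Birc5 and Mcm7 for AngII+RvE1 against AngII (adjusted p = 0.0765 and 0.0620, limma). Without the filter on low values, and with replicate number as a block, Ccne1 kept both calls, Cdk2 kept that for AngII against Sham, and Birc5, Mcm7 and Stmn1 kept none.

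**Figure D2:**
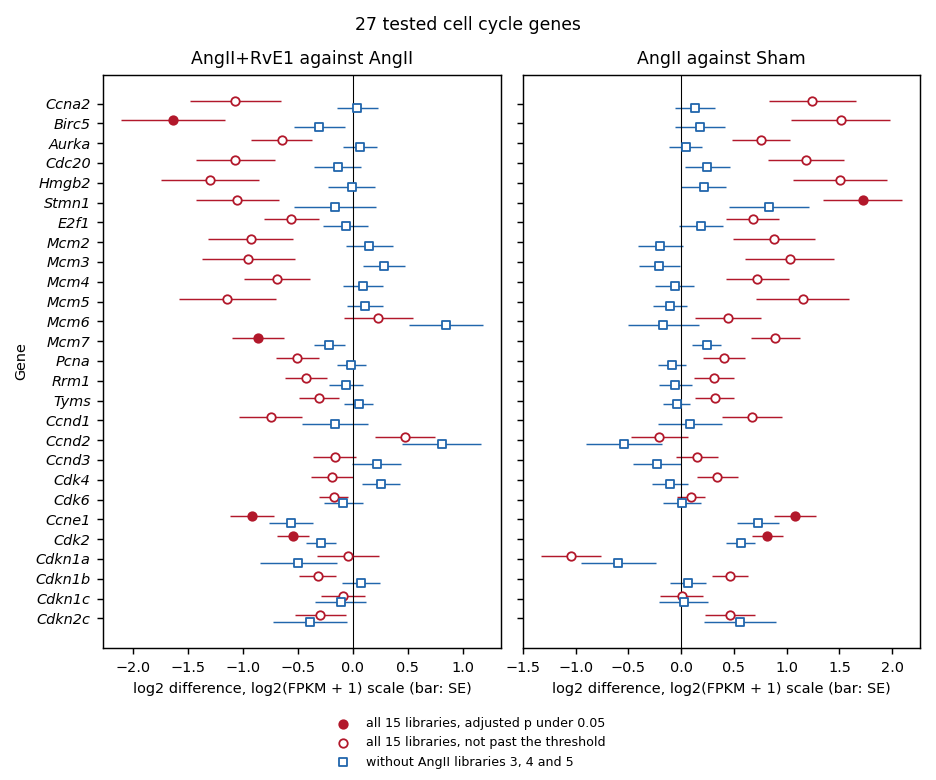
Log2 difference (horizontal axis, bar: SE) of the 27 tested genes for AngII+RvE1 against AngII (left) and AngII against Sham (right), from all 15 libraries (circles, filled where called) and without AngII libraries 3, 4 and 5 (squares). For 20 of the 27 genes on the left and 23 on the right the square lies nearer to 0 than the circle. Squares of Ccne1 (-0.57 and 0.73) and Cdk2 (-0.29 and 0.56) lie on the same side of 0 as their circles.

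Cyclin E1 and CDK2, partners that drive entry into S phase, were the members for which every AngII library lay above all others. Ccne1 (chr7:38097984-38107490, RefSeq on GRCm38.p6, as for the genes below) stood at 0.789, 0.961, 1.0003, 0.405 and 0.4199 FPKM in AngII+RvE1 libraries, 1.74, 1.29, 3.11, 1.68 and 3.81 FPKM in AngII libraries and 0.283, 0.871, 0.513, 0.652 and 0.334 FPKM in Sham libraries. Every AngII library lay above every library of both other groups, and those 2 groups overlapped. Ccne1 passed the filter with 6 libraries at 1 FPKM or more, the AngII libraries and AngII+RvE1 3. Without AngII 3, 4 and 5 it did not pass, so its entry into the tests depended on the group where it was high. Its log2 difference was -0.92 (SE 0.20, adjusted p = 0.0205) for AngII+RvE1 against AngII and 1.08 (SE 0.20, adjusted p = 0.0152) for AngII against Sham by limma.

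Cdk2 (chr10:128697938-128705051) stood at 6.85, 6.99, 6.18, 7.23 and 7.31 FPKM in AngII+RvE1 libraries, 8.35, 9.01, 12.8, 9.13 and 14.7 FPKM in AngII libraries and 6.16, 5.16, 4.49, 6.55 and 5.59 FPKM in Sham libraries. Again the AngII libraries lay above all others, with libraries 1 and 2 nearest to the other groups. The log2 difference was -0.55 (SE 0.14, adjusted p = 0.0359) for AngII+RvE1 against AngII and 0.82 (SE 0.14, adjusted p = 0.0118) for AngII against Sham by limma. Exons of Cdk2 overlap those of Pmel on the opposite strand, which stood at 0.156 to 0.571 FPKM in the 15 libraries. Of the 27 tested members, only Ccne1 and Cdk2 had groups without overlap in these 2 comparisons, both lower in AngII+RvE1 than in AngII and higher in AngII than in Sham. Of all tested genes, 5.23% lay without overlap lower and 5.87% higher in AngII+RvE1 than in AngII, and 2.92% lay higher and 0.778% lower in AngII aortas when set against Sham. In a set of 27 genes, 2 is near the first of these shares. Between AngII+RvE1 and Sham, 0 of 27 members were without overlap, against 0.825% of tested genes higher and 0.262% lower.

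For AngII against Sham, Ccne1 and Cdk2 were called after each of the 15 single-library omissions, but neither was called with only these 2 groups in the fit (adjusted p = 0.0716 and 0.0781, limma). For AngII+RvE1 against AngII, Ccne1 missed the threshold without AngII 5 or AngII+RvE1 1, 4 or 5 (highest adjusted p = 0.0607 over the omissions, limma), and Cdk2 without AngII 3 or 5 or any AngII+RvE1 library (highest adjusted p = 0.0957, limma). Without AngII libraries 3, 4 and 5 together, the log2 difference of Ccne1 was -0.57 for AngII+RvE1 against AngII (adjusted p = 0.346) and 0.73 for AngII against Sham (adjusted p = 0.297), and that of Cdk2 was -0.29 (adjusted p = 0.436) and 0.56 (adjusted p = 0.196), by limma. Over all alternatives, the adjusted p of Ccne1 ran from 0.00124 to 0.346 for AngII+RvE1 against AngII and from 0.00478 to 0.297 for AngII against Sham, and that of Cdk2 from 0.00370 to 0.436 and from 0.00288 to 0.196.

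**Figure D3:**
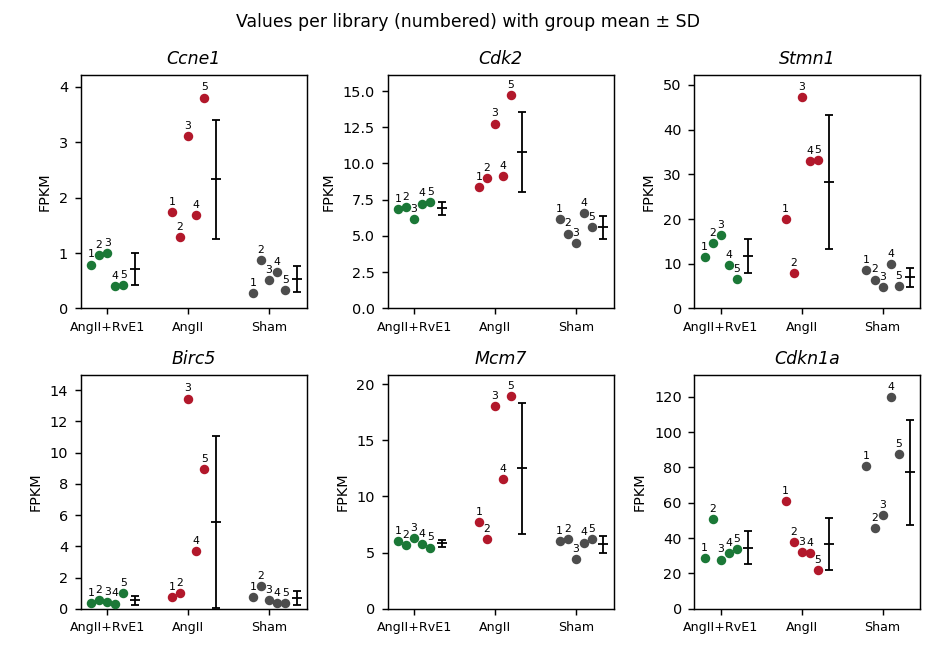
FPKM (vertical axes, starting at 0) of 6 genes in each library, numbered within its group, with the mean ± SD of the 5 libraries beside the points. For Ccne1 and Cdk2 all 5 AngII libraries lie above every other library, for Birc5 and Mcm7 AngII libraries 3, 4 and 5 stand high, and for Cdkn1a the AngII+RvE1 and AngII libraries lie mostly below the Sham libraries.

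No other G1 gene passed the test in either comparison. Ccnd1, a cyclin induced by growth factors, stood at 9.74, 6.39, 4.59, 8.7998 and 5.67 FPKM in AngII+RvE1 libraries, 7.25, 8.29, 18.8, 11.5 and 19.4 FPKM in AngII libraries and 11.1, 5.22, 4.89, 9.32 and 7.32 FPKM in Sham libraries. AngII libraries 3, 4 and 5 were the highest 3 of the 15, and the others overlapped. Its log2 difference was -0.75 (SE 0.29, adjusted p = 0.105) for AngII+RvE1 against AngII and 0.67 (SE 0.29, adjusted p = 0.155) for AngII against Sham by limma. Ccnd2, another D-type cyclin, stood at 15.7, 16.4, 13.3, 22.1 and 23.96 FPKM in AngII+RvE1 libraries, 7.58, 12.5, 14.8, 12.4 and 17.9 FPKM in AngII libraries and 24.8, 10.98, 8.42, 14.1 and 20.6 FPKM in Sham libraries. Its groups overlapped, with log2 differences of 0.47 (SE 0.27, adjusted p = 0.263) for AngII+RvE1 against AngII and -0.21 (SE 0.27, adjusted p = 0.663) for AngII against Sham by limma. Ccnd3, at 47.8 to 102 FPKM over the 15 libraries, and Cdk4, at 39.2 to 89.1 FPKM, had the highest levels per length among the 8 G1 genes. Cdk6 ranged from 1.11 to 2.49 FPKM, and Ccne2, the second cyclin E gene, stayed under 1 FPKM in every library.

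The 6 subunits of the helicase that opens DNA at replication origins were all highest in AngII 5, with AngII 3 next. Mcm7 (chr5:138164583-138172111) stood at 6.02, 5.69, 6.27, 5.78 and 5.45 FPKM in AngII+RvE1 libraries, 7.72, 6.21, 18.02, 11.6 and 18.9 FPKM in AngII libraries and 6.0002, 6.16, 4.44, 5.89 and 6.22 FPKM in Sham libraries. AngII 3 and 5 were highest, AngII 4 intermediate, and AngII 2 lay within the range of the AngII+RvE1 libraries. It fell by 0.87 on the log2 scale in AngII+RvE1 against AngII aortas (SE 0.23, adjusted p = 0.0376), and its log2 difference for AngII against Sham was 0.89 (SE 0.23, adjusted p = 0.0504), by limma, and passed the threshold after rescaling (adjusted p = 0.0430) and with 0.1 added before the log (adjusted p = 0.0483). Leaving out AngII libraries 3, 4 and 5, these values were -0.21 and 0.24 (adjusted p = 0.556 and 0.802), and the call was lost without Sham 2, without AngII 3, 4 or 5 and without any AngII+RvE1 library; the adjusted p for AngII+RvE1 against AngII ran from 0.000445 to 0.556 over all alternatives. Exons of Mcm7 overlap Cops6 and Ap4m1 on the opposite strand, which averaged 73.7 ± 10.03 and 7.90 ± 1.22 FPKM in AngII+RvE1, 67.9 ± 8.05 and 10.4 ± 0.67 FPKM in AngII and 68.7 ± 17.1 and 7.51 ± 1.61 FPKM in Sham libraries (SD, n = 5 each). In all, exons of 13 members overlap a gene on the opposite strand, Ccna2, Ccnd1, Ccnd2, Cdkn1a and Cdkn1c among them, and whether reads were assigned by strand is not given in the sources used here, so values of such genes are uncertain.

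Mcm2 stood at 2.18, 1.57, 1.27, 1.49 and 1.43 FPKM in AngII+RvE1 libraries, 1.01, 1.68, 9.02, 3.74 and 9.99 FPKM in AngII libraries and 2.18, 2.07, 1.25, 2.07 and 0.967 FPKM in Sham libraries. AngII 1 and 2 did not exceed the Sham range. Its log2 difference was -0.93 (SE 0.39, adjusted p = 0.129) for AngII+RvE1 against AngII and 0.88 (SE 0.39, adjusted p = 0.164) for AngII against Sham by limma, and both changed sign without AngII libraries 3, 4 and 5 (0.15 and -0.20). Mcm3, Mcm4 and Mcm5, its partners in the ring, had their highest values in AngII 5 and their next highest in AngII 3.

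Mcm6 was the subunit with the highest AngII+RvE1 values. It stood at 12.2, 8.43, 11.8, 14.1 and 14.7 FPKM in AngII+RvE1 libraries, 4.59, 8.47, 15.6, 9.46 and 17.7 FPKM in AngII libraries and 10.3, 6.83, 4.06, 5.55 and 11.5 FPKM in Sham libraries. The AngII+RvE1 libraries lay within the AngII range and above Sham 2, 3 and 4, and AngII 1 was next to the lowest of the 15. Its log2 differences were 0.23 (SE 0.31, adjusted p = 0.663) for AngII+RvE1 against AngII, 0.45 (SE 0.31, adjusted p = 0.386) for AngII against Sham and 0.68 (SE 0.31, adjusted p = 0.735) for AngII+RvE1 against Sham, by limma. It was the only one of the 6 subunits whose log2 difference for AngII+RvE1 against AngII was positive; this sign turned without AngII 1 (-0.02), and that for AngII against Sham without AngII libraries 3, 4 and 5 (-0.17).

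Pcna, the sliding clamp of the replicative polymerases, which also serves DNA repair, stood at 27.1, 25.9, 28.1, 26.7 and 25.2 FPKM in AngII+RvE1 libraries, 25.6, 28.2, 57.3, 33.7 and 57.7 FPKM in AngII libraries and 30.1, 27.4, 29.7, 24.3 and 31.9 FPKM in Sham libraries. AngII 3 and 5 held about the same value, well above the rest. For Pcna the log2 difference was -0.51 (SE 0.20, adjusted p = 0.112) for AngII+RvE1 against AngII and 0.41 (SE 0.20, adjusted p = 0.208) for AngII against Sham by limma, and -0.09 for AngII against Sham without AngII libraries 3, 4 and 5. Rrm2, the regulated subunit of ribonucleotide reductase, stood at 0.878, 0.732, 0.6703, 0.759 and 0.814 FPKM in AngII+RvE1 libraries, 0.674, 0.947, 5.82, 1.64 and 8.204 FPKM in AngII libraries and 0.586, 1.65, 0.274, 0.852 and 0.591 FPKM in Sham libraries. Sham 2 matched AngII 4, so the groups overlapped. Rrm1, its constant partner, ranged from 3.84 to 10.3 FPKM and Tyms, which makes thymidylate, from 0.929 to 2.94 FPKM over the 15 libraries, with AngII 3 highest for both.

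Birc5, which encodes survivin, a subunit of the chromosomal passenger complex, was the mitotic gene that passed the test. Its values (chr11:117849237-117855743) were 0.384, 0.5697, 0.424, 0.329 and 0.992 FPKM in AngII+RvE1 libraries, 0.757, 1.01, 13.5, 3.68 and 8.97 FPKM in AngII libraries and 0.767, 1.47, 0.561, 0.377 and 0.342 FPKM in Sham libraries. AngII 3, 4 and 5 lay above all others, and AngII 1 and 2 lay among the Sham libraries. It fell by 1.64 on the log2 scale in AngII+RvE1 against AngII aortas (SE 0.47, adjusted p = 0.0451), with a log2 difference of 1.51 (SE 0.47, adjusted p = 0.0764) for AngII against Sham, by limma. Birc5 passed the filter with exactly 5 libraries at 1 FPKM or more, so omission of AngII 2, 3, 4 or 5 or of Sham 2 left it untested, and the call was lost without Sham 4 or 5 or any AngII+RvE1 library. Without AngII libraries 3, 4 and 5 the log2 differences were -0.30 and 0.18 (adjusted p = 0.625 and 0.915, limma); the adjusted p for AngII+RvE1 against AngII ran from 0.000674 to 0.625 over all alternatives.

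Cyclin A2 acts in S phase and mitosis. Ccna2 stood at 0.588, 0.8203, 1.04, 1.03 and 0.813 FPKM in AngII+RvE1 libraries, 0.472, 1.195, 10.2, 2.25 and 6.56 FPKM in AngII libraries and 0.6897, 0.935, 0.377, 0.766 and 0.507 FPKM in Sham libraries. AngII 3 was highest, followed by AngII 5 and 4, and AngII 1 lay below most Sham libraries. The log2 difference was -1.07 (SE 0.41, adjusted p = 0.107) for AngII+RvE1 against AngII and 1.24 (SE 0.41, adjusted p = 0.0902) for AngII against Sham by limma. The first of these was 0.04 without AngII libraries 3, 4 and 5.

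The master mitotic kinase and its cyclin lay below the filter. Cdk1 stood at 0.163, 0.138, 0.248, 0.291 and 0.273 FPKM in AngII+RvE1 libraries, 0.252, 0.363, 3.53, 0.362 and 1.71 FPKM in AngII libraries and 0.339, 0.354, 0.108, 0.149 and 0.143 FPKM in Sham libraries. Ccnb1, its cyclin B partner, stood at 0.0734, 0.171, 0.461, 0.126 and 0.356 FPKM in AngII+RvE1 libraries, 0.292, 0.231, 3.84, 1.05 and 2.88 FPKM in AngII libraries and 0.241, 0.478, 0.187, 0.168 and 0.0943 FPKM in Sham libraries. For both, AngII 3 and 5 were far above the rest, and for Cdk1 library AngII 4 was level with AngII 2. Of the 11 spindle, checkpoint and mitotic exit genes, AngII 3 was the highest library for 10 and AngII 5 for 1, Bub1b. In AngII 3 these 11 genes ranged from 0.555 FPKM for Cenpf, a kinetochore protein, to 13.5 FPKM for Birc5.

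The proliferation markers were highest in AngII 3 and 5 too. Mki67, the Ki-67 antigen of cycling cells, stood at 0.183, 0.258, 0.192, 0.197 and 0.206 FPKM in AngII+RvE1 libraries, 0.107, 0.384, 4.24, 1.303 and 3.92 FPKM in AngII libraries and 0.06702, 0.336, 0.109, 0.364 and 0.215 FPKM in Sham libraries. Top2a, the topoisomerase that untangles replicated chromosomes, stood at 0.302, 0.365, 0.506, 0.364 and 0.337 FPKM in AngII+RvE1 libraries, 0.236, 0.977, 6.63, 1.99 and 6.69 FPKM in AngII libraries and 0.596, 0.802, 0.1702, 0.434 and 0.238 FPKM in Sham libraries. For both genes AngII 1 lay within the range of the other groups, and AngII 2 was just above it.

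Hmgb2, a chromatin protein of dividing cells, stood at 3.16, 2.303, 3.06, 3.36 and 3.296 FPKM in AngII+RvE1 libraries, 3.25, 2.85, 18.1, 9.54 and 28.1 FPKM in AngII libraries and 1.84, 3.87, 2.45, 3.02 and 1.702 FPKM in Sham libraries. For Hmgb2 the log2 difference was -1.30 (SE 0.45, adjusted p = 0.0768) for AngII+RvE1 against AngII and 1.51 (SE 0.45, adjusted p = 0.0685) for AngII against Sham by limma. AngII 5 was highest, and AngII 1 and 2 lay within the Sham range.

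Stmn1 (chr4:134468320-134473843), which encodes stathmin, stood at 11.5, 14.5, 16.4, 9.65 and 6.62 FPKM in AngII+RvE1 libraries, 19.97, 7.95, 47.2, 32.9 and 33.2 FPKM in AngII libraries and 8.53, 6.46, 4.77, 9.86 and 5.05 FPKM in Sham libraries. All AngII libraries but AngII 2 exceeded all others, and AngII+RvE1 libraries ran from within to above the Sham range. It rose by 1.72 on the log2 scale in AngII against Sham aortas (SE 0.37, adjusted p = 0.0300), with differences of -1.05 (SE 0.37, adjusted p = 0.0857) for AngII+RvE1 against AngII and 0.67 (SE 0.37, adjusted p = 0.825) for AngII+RvE1 against Sham, by limma. The call was lost without AngII 3, 4 or 5 or Sham 2 or 5, and without AngII libraries 3, 4 and 5 together the difference for AngII against Sham was 0.83 (adjusted p = 0.730); over all alternatives its adjusted p ran from 0.00230 to 0.732.

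E2f1 activates the genes of DNA replication and Foxm1 those of mitosis. E2f1 stood at 0.993, 0.9305, 0.747, 1.03 and 1.12 FPKM in AngII+RvE1 libraries, 0.617, 1.61, 4.18, 1.28 and 3.08 FPKM in AngII libraries and 1.28, 0.631, 0.434, 0.994 and 0.816 FPKM in Sham libraries, with log2 differences of -0.56 (SE 0.25, adjusted p = 0.152) for AngII+RvE1 against AngII and 0.68 (SE 0.25, adjusted p = 0.113) for AngII against Sham by limma. Foxm1 stood at 0.413, 0.481, 0.432, 0.342 and 0.367 FPKM in AngII+RvE1 libraries, 0.273, 0.643, 4.02, 0.612 and 2.47 FPKM in AngII libraries and 0.576, 0.644, 0.288, 0.407 and 0.236 FPKM in Sham libraries. Both were highest in AngII 3 and next in AngII 5, and AngII 4 was close to the highest Sham library.

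None of the 4 CDK inhibitor genes was called in any comparison over all 15 libraries without rescaling or library weights. With library weights, limma called Cdkn1a lower and Cdkn1b and Cdkn2c higher for AngII against Sham, where 22.4% of all tested genes were called. For AngII+RvE1 against AngII, the weighted fit called Cdkn1b and Cdkn1c lower (-0.33 and -0.49), where 35.5% of all tested genes were called. Cdkn1a, which encodes p21, a target of p53 that blocks CDK2, stood at 28.8, 50.8, 27.8, 31.6 and 33.6 FPKM in AngII+RvE1 libraries, 60.7, 37.8, 32.03, 31.6 and 21.8 FPKM in AngII libraries and 80.7, 45.6, 53.03, 119.96 and 87.5 FPKM in Sham libraries. The Sham libraries spread widely, the AngII+RvE1 and AngII libraries lay mostly under them, and the groups overlapped. Its log2 difference was -1.09 (SE 0.28, adjusted p = 0.468) for AngII+RvE1 against Sham and -1.05 (SE 0.28, adjusted p = 0.0554) for AngII against Sham, both set against the same Sham libraries, and -0.05 (SE 0.28, adjusted p = 0.937) for AngII+RvE1 against AngII, by limma. For AngII against Sham it passed the threshold after rescaling (-1.18, adjusted p = 0.0359) and stood at -0.59 without AngII libraries 3, 4 and 5, its adjusted p running from 0.00583 to 0.814 over all alternatives; for AngII+RvE1 against AngII rescaling turned the sign (0.06).

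Cdkn1b, which encodes p27, stood at 18.3, 14.8, 14.4, 17.6 and 14.3 FPKM in AngII+RvE1 libraries, 14.6, 15.4, 23.8, 22.2 and 27.02 FPKM in AngII libraries and 15.9, 12.3, 11.1, 16.7 and 16.3 FPKM in Sham libraries. It was the inhibitor gene that exceeded all AngII+RvE1 and Sham libraries in each of AngII 3, 4 and 5. Its log2 differences were -0.32 (SE 0.17, adjusted p = 0.225) for AngII+RvE1 against AngII and 0.46 (SE 0.17, adjusted p = 0.115) for AngII against Sham by limma, and the first turned to 0.07 without AngII libraries 3, 4 and 5.

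Cdkn1c, the imprinted gene of p57, stood at 11.1, 10.4, 12.7, 12.6 and 18.9 FPKM in AngII+RvE1 libraries, 13.3, 14.7, 8.86, 19.3 and 14.6 FPKM in AngII libraries and 19.2, 11.4, 12.9, 15.4 and 11.1 FPKM in Sham libraries. Cdkn2c, which encodes the CDK4 and CDK6 inhibitor p18, stood at 41.4, 35.1, 61.5, 24.3 and 43.4 FPKM in AngII+RvE1 libraries, 56.5, 47.9, 44.9, 52.3 and 42.6 FPKM in AngII libraries and 33.2, 44.7, 51.8, 30.2 and 22.4 FPKM in Sham libraries. The groups of both genes overlapped throughout. For AngII+RvE1 against AngII the log2 difference was -0.09 (SE 0.20, adjusted p = 0.806) for Cdkn1c, with the sign turned by rescaling, and -0.30 (SE 0.23, adjusted p = 0.427) for Cdkn2c, by limma. For AngII against Sham it was 0.00 (SE 0.20, adjusted p = 0.994, and -0.12 after rescaling) for Cdkn1c and 0.46 (SE 0.23, adjusted p = 0.223) for Cdkn2c.

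Summed markers of macrophages and plasma cells were also highest in AngII libraries 3, 4 and 5, and those of other cell types were not. The summed level of 7 macrophage markers was 187 to 237 FPKM in AngII+RvE1 libraries, 184, 390, 2538, 493 and 1044 FPKM in AngII libraries 1 to 5, and 157 to 255 FPKM in Sham libraries, and all 7 lay above the other groups in AngII 2, 3, 4 and 5. The 5 plasma cell markers summed to 9.39 to 11.0 FPKM in AngII+RvE1 libraries, 8.80, 9.59, 97.9, 49.6 and 372 FPKM in AngII libraries 1 to 5, and 6.79 to 27.3 FPKM in Sham libraries. The 7 smooth muscle markers summed to 5323 to 9583 FPKM in AngII+RvE1 and 1716 to 12053 FPKM in Sham libraries. In AngII libraries 1 to 5 they summed to 1952, 3323, 1476, 2271 and 1159 FPKM. Sums of endothelial, fibroblast, adipocyte, red cell and cardiac muscle markers were each highest outside AngII libraries 3, 4 and 5. The cardiac muscle sums were uneven within every group. They were 10.2, 1877, 7.74, 354 and 13.8 FPKM in AngII libraries 1 to 5. In AngII+RvE1 libraries they ran from 8.91 to 1001 FPKM and in Sham libraries from 36.4 to 745 FPKM. No marker of the lymphocyte, macrophage, plasma cell and smooth muscle lists was at 0 throughout a group. The part of these cell types in the cell cycle results was not tested.

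Lymphoid organs hold dividing B cells of germinal centres and dividing immature T cells, so their markers were read too. The 5 germinal centre markers summed to 12.1 to 20.4 FPKM in AngII+RvE1, 12.2 to 23.7 FPKM in AngII and 11.2 to 31.9 FPKM in Sham libraries. Of these, Rgs13 was listed at 0 in all AngII+RvE1 and Sham libraries and stood at 0, 0.0741, 0.208, 0.493 and 1.45 FPKM in AngII libraries. The 5 immature thymocyte markers summed to 0.221 to 4.89 FPKM in AngII+RvE1, 0.0999 to 32.7 FPKM in AngII and 0.135 to 14.7 FPKM in Sham libraries. Cd8b1, which mature T cells also express, held most of the sum in AngII 3, 4 and 5, at 0.668, 0.0488, 21.1, 10.5 and 32.1 FPKM in AngII libraries. The defining genes Rag1, Rag2, Dntt and Ptcra were under 1 FPKM in all AngII libraries, with Rag2 at 0. Outside them, Dntt stood at 1.36 FPKM in AngII+RvE1 2 and at 3.83 and 1.89 FPKM in Sham 2 and 4, and Rag1 at 2.49 and 1.24 FPKM in Sham 2 and 4.

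**Figure D4:**
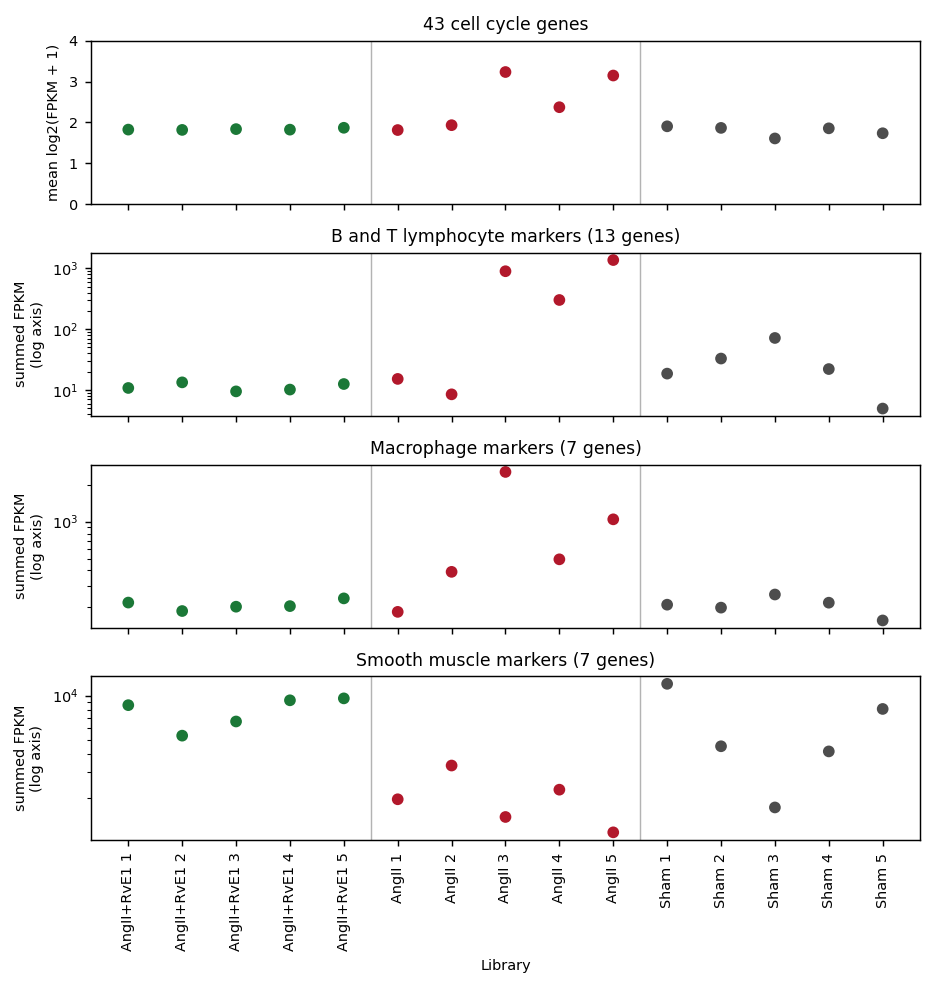
Mean log2(FPKM + 1) of the 43 genes (top) and summed FPKM of lymphocyte, macrophage and smooth muscle markers (lower panels, log axes) in each library, ordered AngII+RvE1, AngII, Sham. AngII libraries 3, 4 and 5, at 3.23, 2.37 and 3.15 on the top panel, are the highest 3 there and in the lymphocyte and macrophage panels, and the AngII libraries lie below every AngII+RvE1 library in the smooth muscle panel.

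Further genes of the same pathways were read from lists chosen by function. Of 40 other DNA replication genes, 25 were tested: 3 fell and 0 rose in AngII+RvE1 against AngII, against 4.31% and 4.21% of all tested genes, and 2 rose and 0 fell in AngII against Sham, against 2.36% and 0.809%. Ung, the uracil-DNA glycosylase of base excision repair, stood at 2.01, 1.88, 2.08, 0.898 and 1.88 FPKM in AngII+RvE1 libraries, 4.43, 4.18, 3.83, 4.605 and 6.205 FPKM in AngII libraries and 0.817, 1.72, 1.42, 1.26 and 1.75 FPKM in Sham libraries. All 5 AngII libraries lay above every other library, AngII 1 and 2 included. Its log2 difference was -1.05 (SE 0.16, adjusted p = 0.0109) for AngII+RvE1 against AngII and 1.24 (SE 0.16, adjusted p = 0.00173) for AngII against Sham by limma, called after each single-library omission. Without AngII libraries 3, 4 and 5 it was -0.97 (adjusted p = 0.183) and 1.16 (adjusted p = 0.0568), the adjusted p running from 9.78e-05 to 0.188 and from 0.000294 to 0.0576 over all alternatives.

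Uhrf1, which keeps DNA methylation through replication, stood at 1.34, 0.603, 1.07, 0.541 and 0.862 FPKM in AngII+RvE1 libraries, 2.11, 1.57, 5.99, 2.48 and 6.78 FPKM in AngII libraries and 0.311, 1.13, 0.864, 0.853 and 0.473 FPKM in Sham libraries. The difference of Uhrf1 on the log2 scale was -1.22 (SE 0.28, adjusted p = 0.0225) for AngII+RvE1 against AngII and 1.35 (SE 0.28, adjusted p = 0.0247) for AngII against Sham by limma. No AngII library overlapped either other group. Cdc45, which completes the active helicase with MCM2-7, stood at 2.02, 2.46, 2.16, 1.42 and 1.899 FPKM in AngII+RvE1 libraries, 4.32, 3.27, 3.86, 2.58 and 4.35 FPKM in AngII libraries and 1.48, 2.48, 2.11, 3.06 and 1.95 FPKM in Sham libraries, and fell by 0.64 on the log2 scale in AngII+RvE1 against AngII (SE 0.15, adjusted p = 0.0264, limma). Uhrf1 lost its call for AngII+RvE1 against AngII without AngII 3 or 5 or AngII+RvE1 4 or 5, and for AngII against Sham without AngII 3 or 5 or Sham 5. Cdc45 lost its call without AngII 3 or 5 or AngII+RvE1 1, 4 or 5. Without AngII libraries 3, 4 and 5 the difference for AngII+RvE1 against AngII was -0.61 for Uhrf1 and -0.68 for Cdc45, and that for AngII against Sham was 0.73 for Uhrf1, none called.

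Of 45 other mitosis genes, 13 were tested: 1 rose and 0 fell in AngII+RvE1 against AngII, against 4.21% and 4.31% of all tested genes, and 1 rose and 0 fell in AngII against Sham, against 2.36% and 0.809%. In a list of 13 genes, 1 call is near those shares. The first was Pttg1, securin, at 56.9, 58.7, 70.7, 51.9 and 75.2 FPKM in AngII+RvE1, 50.03, 46.1, 38.2, 49.2 and 44.5 FPKM in AngII and 50.1, 49.6, 56.8, 49.7 and 43.2 FPKM in Sham libraries, with a log2 difference of 0.44 (SE 0.12, adjusted p = 0.0425, limma) for AngII+RvE1 against AngII. The second was Cdc25b, a phosphatase that activates CDKs, at 7.02, 4.34, 4.94, 6.14 and 6.2997 FPKM in AngII+RvE1, 4.02, 4.21, 8.65, 6.32 and 11.2 FPKM in AngII and 3.64, 2.95, 1.71, 2.79 and 3.17 FPKM in Sham libraries, with a log2 difference of 0.97 (SE 0.23, adjusted p = 0.0377, limma) for AngII against Sham. Among the AngII libraries Pttg1 was lowest in library 3. The median log2 difference of the 13 genes was -0.82 for AngII+RvE1 against AngII and 0.92 for AngII against Sham. Over all tested genes these medians were -0.11 and 0.11. Only 13 of the 45 genes passed the filter, which a low gene could pass through the AngII libraries alone. The medians of the 13 may therefore depend in part on the filter. Pttg1 lost its call in 10 of 15 single-library omissions and Cdc25b in 9, and without AngII libraries 3, 4 and 5 their differences were 0.36 and 0.43, neither called.

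Of 21 RB, E2F and DREAM regulators, 16 were tested: 1 fell and 0 rose in AngII+RvE1 against AngII, near the 4.31% and 4.21% of all tested genes, and 0 were called in AngII against Sham, against 3.17%. The one that fell was Lin9, a MuvB subunit, at 0.784, 1.22, 1.12, 1.02 and 0.771 FPKM in AngII+RvE1, 1.54, 1.59, 2.23, 1.86 and 2.75 FPKM in AngII and 0.652, 1.22, 1.22, 1.25 and 1.13 FPKM in Sham libraries (log2 difference -0.59, SE 0.14, adjusted p = 0.0234, limma). All AngII libraries lay above all others. Lin9 lost its call without AngII 3 or 5 or AngII+RvE1 1, 4 or 5, and stood at -0.38 without AngII libraries 3, 4 and 5.

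Of 14 p53 target genes, 13 were tested, with 0 called in AngII+RvE1 against AngII, against 8.52% of all tested genes, and 1 higher in AngII against Sham, against 2.36%. This was Plk2, a stress-induced kinase, at 5.78, 3.93, 5.11, 6.003 and 4.26 FPKM in AngII+RvE1, 3.89, 5.97, 9.52, 9.14 and 5.499 FPKM in AngII and 3.09, 3.33, 2.53, 3.82 and 3.31 FPKM in Sham libraries (log2 difference 0.84, SE 0.19, adjusted p = 0.0343, limma). The call was lost without AngII 3, 4 or 5 or Sham 1, 2 or 5, and the difference was 0.48 without AngII libraries 3, 4 and 5. None of the 4 further lists had a called gene in AngII+RvE1 against Sham. Without the filter on low values, the calls of Uhrf1, Cdc45, Pttg1, Cdc25b, Lin9 and Plk2 were lost (adjusted p = 0.0516 to 0.0724, limma).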

How the data were processed

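RNA of 15 aorta libraries was sequenced from 1.3 µg of total RNA each with a SMARTER mRNA-seq kit, per the labels' protocols, on build mm10 per the submitters' processing notes. The aligner, the quantifier and its strand setting are not stated in the sources at hand. The deposited table holds 1 value per gene and library with no unit named. The deposited values were taken as FPKM, since library sums differ (385846 to 514281) and values are fractional. The depth is unknown, so no counting interval is given.

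Values were analysed as log2(FPKM + 1) with limma-trend (limma 3.58.1, R 4.3.3) over all 15 libraries, on genes at 1 or more in at least 5 libraries, with Benjamini-Hochberg adjustment over 12603 genes and a threshold of 0.05. A fold change on this scale understates that of low genes. The pipeline was tested on simulated data in which each gene had the same spread in every group. Changes were placed only in genes of higher level. That test therefore does not bear on low genes or on groups of unequal spread. Values in every library are given for called members, for the 4 smallest p where fewer than 4 were called, and for 18 well-known members; of the other lists, up to 3 called genes each. Members and lists were chosen with earlier results of these data known. Alternatives were rescaling, another added value, no filter, 2-group fits, a replicate block, library weights and omitted libraries.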

Additional observations from a re-analysis of the deposited data

Results flagged for a closer look

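Within a group of 5 libraries, 2 members had 1 library far from the other 4, among 69 groups of 5 examined, where chance flags about 1 in 20. Hmgb2 was lowest in AngII+RvE1 library 2, at 2.30 FPKM, with the nearest at 3.06 FPKM. Mcm7 was lowest in Sham library 3, at 4.44 FPKM, with the nearest at 5.89 FPKM.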

How the results depend on the processing

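The depth behind each value is unknown, 23 of 43 members lie below 1 FPKM in most libraries, and rescaling by the median ratio moved the median of all genes (0.11 to -0.00 for AngII against Sham, -0.11 to -0.02 for AngII+RvE1 against AngII). It changed the split of called genes to 820 higher and 479 lower, against 531 and 543, for AngII+RvE1 against AngII, and to 262 higher and 289 lower, against 298 and 102, for AngII against Sham.

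For AngII+RvE1 against AngII, members called lower numbered 1 without the filter, 2 with only the groups compared, 1 with the replicate block, 16 with library weights (which also called 1 higher, Ccnd2), 0 without AngII libraries 3, 4 and 5, and 0 to 13 over single-library omissions (0 without AngII 5 or AngII+RvE1 1, 4 or 5; 13 without AngII 1, 8 without AngII 2). All genes called numbered 405 without the filter (1.55% of those tested), 1340 with only the groups compared (10.6%) and 433 with the block (3.44%). They numbered 4469 with weights (35.5%) and 95 to 2007 over omissions (0.76% to 16%). Without AngII 3, 4 and 5 they numbered 1 (6 on the genes of the full filter, an alternative chosen after seeing the data).

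For AngII against Sham, members called higher numbered 0 with only the groups compared, 12 with weights, 0 without AngII 3, 4 and 5 and 2 to 14 over omissions (14 without AngII 1, 10 without AngII 2), and members called lower 1 after rescaling, 1 with weights and 0 to 1 over omissions, each time Cdkn1a. Mcm7 was called higher too after rescaling, with 0.1 added and with weights. All genes called numbered 151 without the filter (0.577% of those tested), 37 with only the groups compared (0.294%) and 109 with the block (0.865%). They numbered 2821 with weights (22.4%), 20 without AngII 3, 4 and 5 (22 on the full filter) and 77 to 1697 over omissions (0.616% to 13.5%). For AngII+RvE1 against Sham, they numbered 1 without the filter, with only the groups compared and with the block, 17 with weights, 5 without AngII 3, 4 and 5 on either filter and 1 to 8 over omissions. The cause was not tested.

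Same-numbered libraries did not pair: 4 of 15 pairs correlated over 0.1 (-0.41 to 0.52) and 2 of 15 libraries correlated best with their own number; the replicate block left 1 member lower and 2 higher.

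Without AngII libraries 3, 4 and 5 the sign turned for 10 of 27 tested members in AngII+RvE1 against AngII and for 10 of 27 in AngII against Sham, Mcm2, Mcm3, Mcm4 and Mcm5 in both; 0 of these values were called over all 15 libraries. Among the genes whose differences are given, uncalled values that turned for AngII+RvE1 against AngII were Ccna2 (0.041), Cdkn1b (0.074), Mcm2 (0.15), Plk2 (0.030) and Cdc25b (0.38) without AngII 3, 4 and 5, and Cdkn1a (0.055) and Cdkn1c (0.00566) after rescaling; over single-library omissions Cdkn1a ran from -0.21 to 0.15, Cdkn1c from -0.24 to 0.025, Mcm6 from -0.018 to 0.42 and Cdc25b from -0.29 to 0.026. For AngII against Sham they were Mcm2 (-0.20), Mcm6 (-0.17) and Pcna (-0.086) without AngII 3, 4 and 5, and Cdkn1c (-0.12 after rescaling, -0.11 to 0.15 over omissions).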
